A study of Mus musculus with 6 samples.

Results

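The piRNA cluster at Gm21221 lies on mouse chromosome 5, at chr5:149786048-149834611 in build GRCm38, and spans 48564 bases. Its members are all entries of the deposited piRNA table that name this cluster, 201165 of 9924085 entries in 773 clusters. Of these, 68939 entries had at least 1 count. Entries of the same position, strand and length were summed to 93172 places, and 45038 places had counts. The cluster was chosen by its summed counts: its window of the genome was among those with the most counts in an earlier look at these data. Its level is therefore given as a description only. It ranked 9 of 773 clusters by mean CPM, the counts scaled to the effective library size. No other deposited cluster overlapped it.

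Small RNA was sequenced from purified round spermatids, the post-meiotic haploid cells of the testis, of C57BL/6 mice at postnatal day 21. The study compared 3 libraries of Miwi knockout (KO) mice with 3 libraries of wild-type (WT) mice, to learn whether germ cells without MIWI-bound piRNAs still serve fertilization and development. The knockout is global, from a line recovered from stored sperm. Libraries carry the numbers 1 to 3 within a genotype, and nothing in the labels ties a number to its own animal, so p-values speak only to the spread among these samples, possibly a technical one. The tables hold small RNAs only, so the loss of Miwi mRNA could not be checked in them.

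Piwi-interacting RNAs (piRNAs) are single-stranded small RNAs cut from long precursor transcripts of germ cells and bound by PIWI proteins. In mouse spermatocytes and round spermatids the pachytene piRNAs come from long intergenic clusters and are bound by MILI (PIWIL2) and MIWI (PIWIL1), and MIWI holds the longer ones. The 5′ end of a piRNA is usually a uridine, and the 3′ end is trimmed to a length that depends on the PIWI protein that holds it.

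Sequence was read in the exons of Gm21221, and the 5 exonic 5′ ends with the most counts show what a read of the cluster looks like. Each is given 5′ to 3′ in DNA letters for 30 bases on the minus strand, from the GENCODE M21 transcript of Gm21221 (GRCm38). The capitals mark the first base and bases 28 to 30, which a 27-nt RNA lacks and a 30-nt RNA holds.

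End 1: TacaaagcattctctgtgggttttcatGCA
End 2: TacttgacagaccgcagcaaaccgcaaCCA
End 3: GagaaaaaccttttttatccaagagagAAG
End 4: TgcaagaagacactgttacacagtgagGCT
End 5: TactgagaaaaaccttttttatccaagAGA

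End 1 lies in exon 2 (chr5:149804868-149804897), end 2 in exon 5 (chr5:149802305-149802334) and end 4 in exon 4 (chr5:149803642-149803671). Ends 3 (chr5:149803541-149803570) and 5 (chr5:149803545-149803574) lie in exon 4 and cover nearly the same bases in shifted frames. RNAs of any length at end 1 had 74, 61 and 85 counts in KO libraries 1 to 3 against 406, 463 and 537 in WT libraries 1 to 3. Per 100 miRNA counts of the same library this was 6.30-fold less in KO. At end 3, which starts with G, KO held 5, 3 and 9 counts against 182, 152 and 382 in WT, 42.4-fold less by the same scale. End 5 was 3.43-fold lower, with 68, 33 and 61 KO counts against 164, 141 and 244 of WT. Of its counts in KO, 64 were 25-28 nt and 95 were 29-32 nt, against 65 and 465 in WT. RNAs that share most of their bases thus differed in how much KO retained. Ends 2 and 4 were 19.3-fold and 13.7-fold lower in KO, with 28 nt as the most frequent length in KO and 29 and 31 nt in WT.

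KO libraries held 46711, 26845 and 45925 counts in the cluster, and WT libraries 160798, 172443 and 258860. The whole piRNA table held 1009902 to 1785660 counts per KO library and 4059156 to 6623310 per WT library, so KO values rest on fewer reads. MicroRNA counts of the separate small RNA table ran from 146487 to 246030, with no such gap between genotypes, and gave a second scale that piRNAs do not enter. On it, 5 miR-34 and miR-449 members of germ cells summed to 31.5 to 35.4 per 100 miRNA counts in KO and 28.4 to 30.4 in WT. A list of 6 miRNAs of blood, vessel and somatic testis cells summed to 2.43 to 2.84 in KO and 2.95 to 3.96 in WT. Most of this sum came from miR-143-3p and miR-145a-5p, and the members did not all move alike. The leukocyte miR-223-3p was higher in KO per miRNA count, with 210, 135 and 215 counts against 124, 164 and 155 in WT. The part of these differences in the results below was not tested. A lower level can also mean fewer cells that make the RNA or less RNA per cell, which cannot be told apart in bulk samples.

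The cluster was read almost wholly from the minus strand. Plus-strand RNAs made up 0.170% ± 0.0299 (SD, n = 3) of its counts in KO and 0.0959% ± 0.00558 in WT. The 209 plus-strand counts of KO and 564 of WT lay at 425 places. The groups did not overlap (exact permutation test, two-sided, p = 0.1, the smallest that 3 against 3 libraries allow).

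Gm21221, a long intergenic non-coding RNA of unknown function on the same strand, covers only a stretch of the cluster, chr5:149801990-149811751, in 5 exons with 1073 bases. The 22860 bases of the cluster upstream of its annotated start held 67.0% ± 0.118 of the KO counts and 58.1% ± 0.280 of the WT counts. The introns held 24.02% ± 0.192 in KO and 29.8% ± 0.398 in WT, and the exons 2.88% ± 0.137 and 2.45% ± 0.105. Per kilobase and 100 miRNA counts, WT exons gave 2.16 ± 0.313 and WT introns 3.23 ± 0.354, so introns were not depleted of reads against exons. Downstream of the gene lay 6.13% ± 0.0522 in KO and 9.68% ± 0.294 in WT. Each of these 4 shares had groups without overlap (exact permutation p = 0.1 each). The cluster label therefore names the only GENCODE gene inside it, while most of the RNA came from upstream of that gene as annotated. RefSeq also lists the non-coding gene Gm36187 at chr5:149832529-149841753, at the upstream edge, while 99.8% of the counts had 5′ ends between positions 149790362 and 149831542, outside that gene.

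RNAs of the cluster were shorter in KO. All KO libraries peaked at 27 nt and all WT libraries at 30 nt. In KO the 27-nt RNAs held 24.91%, 24.96% and 24.92% of the counts, and in WT 4.78%, 5.01% and 4.68%. RNAs of 30 nt held 5.79%, 5.52% and 6.29% in KO and 28.6%, 28.8% and 28.5% in WT. The mean length was 26.9 nt ± 0.0683 in KO and 29.7 nt ± 0.0411 in WT (exact permutation p = 0.1). Libraries of a genotype lay close to each other at every length, as the plot of lengths by library shows.

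**Figure D1:**
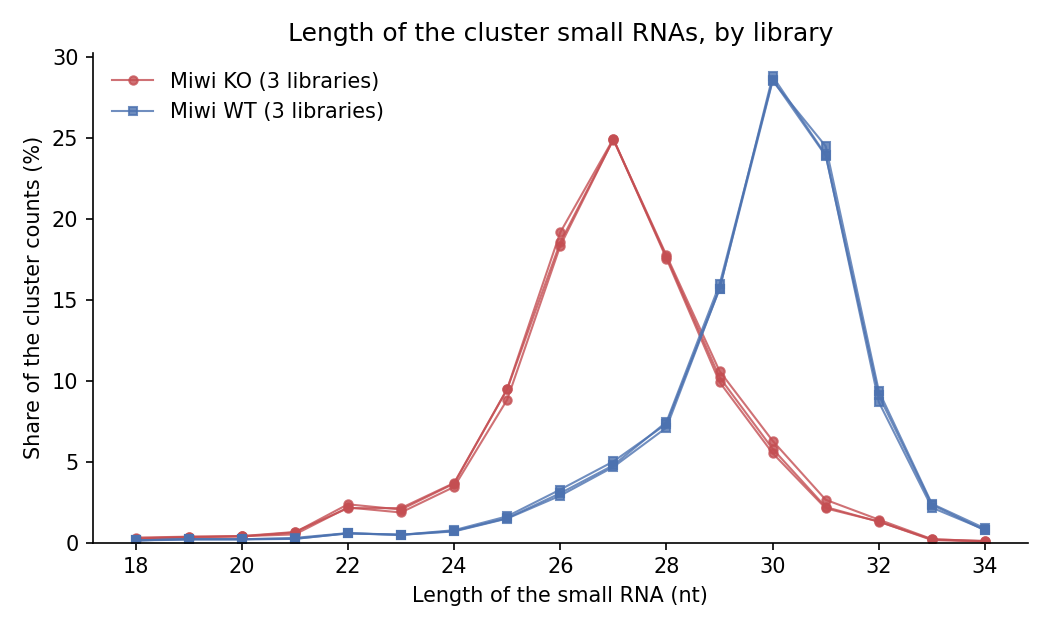
Share of the cluster counts (%) at each RNA length (nt) for 3 Miwi KO libraries (red circles) and 3 WT libraries (blue squares), 1 line per library. The KO lines peak at 27 nt and the WT lines at 30 nt.

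Among RNAs of 25-32 nt, the share of 29-32 nt was 21.6%, 20.9% and 23.1% in KO and 82.2%, 81.7% and 82.8% in WT. All other clusters together had 22.1% ± 1.12 in KO and 80.7% ± 0.583 in WT. Within a library, the cluster lay 1.57 ± 0.102 percentage points above the other clusters in WT and −0.240 ± 0.257 points from them in KO. The difference between genotypes was −1.81 points (exact permutation p = 0.1) and −0.767 without the 10 places of the cluster with the highest counts. Among 134 clusters with at least 1000 counts in each genotype, the cluster had the 40th highest share of 29-32 nt in WT and the 50th lowest in KO, inside the range of these clusters on both counts.

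Set against miRNAs, the long RNAs of the cluster were far lower in KO and the short ones were not higher. RNAs of 29-32 nt stood at 3.88, 3.46 and 3.95 per 100 miRNA counts in KO and at 69.4, 67.9 and 82.2 in WT, 19.4-fold lower in KO. RNAs of 33-34 nt were 57.0-fold lower, at 0.0514 ± 0.0105 against 2.93 ± 0.448. RNAs of 25-28 nt, the length held by MILI in wild-type mice, stood at 14.0, 13.0 and 13.2 in KO and 15.02, 15.17 and 17.01 in WT. RNAs of 18-24 nt stood at 1.79 ± 0.116 in KO and 2.42 ± 0.165 in WT. All 4 classes had groups without overlap and KO below WT (exact permutation p = 0.1 each).

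In edgeR's quasi-likelihood test over all clusters by length class, the 29-32 nt RNAs of the cluster fell by 3.98 on the log2 scale (SE 0.09, Benjamini-Hochberg adjusted p = 2.19e-18), and of all clusters 77.7% fell in this class. The 33-34 nt RNAs fell by 5.50 (SE 0.14, edgeR adjusted p = 8.87e-18), where 91.7% of clusters fell. The cluster was chosen by summed counts, most of them WT counts. The p-values of its falls, here and further below, are therefore a description and support nothing further. Neither shorter class passed, with a log2 change of 0.07 (SE 0.07, adjusted p = 0.432) at 25-28 nt and −0.13 (SE 0.08, adjusted p = 0.209) at 18-24 nt. At 25-28 nt, 18.6% of clusters rose and 15.6% fell. These calls for the short classes depended on the scale. With factors of the miRNAs the 25-28 nt change was −0.11 (adjusted p = 0.377) and the 18-24 nt change −0.32 (adjusted p = 0.0121, where 41% of clusters fell). With library size alone both classes rose, by 1.62 and 1.41, as did 94.7% and 82.8% of clusters. Without WT library 1, 2 or 3 the 25-28 nt class fell by 0.35, 0.33 and 0.27, and the 18-24 nt class by 0.55, 0.53 and 0.48, and without KO library 2 the 18-24 nt class fell by 0.23, each past the threshold in edgeR.

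At the level of single places, 2459 of the 45038 places with counts passed the filter on low counts and were tested with all places of the table. Of these, 262 rose and 1983 fell in KO (edgeR, adjusted p under 0.05), while over all places tested 20.1% rose and 70.5% fell. The median log2 change was −5.74 in the cluster and −4.34 over all places. A place low in 1 genotype passed the filter through the other, so these counts describe the places and support nothing further. Among 25-28 nt places, 234 rose and 143 fell of 545, beside 60.2% and 17.5% of all places of that length. The balance of rises and falls at this length turned with the setting. With DESeq2's size factors 85 rose and 206 fell of 521, beside 35.8% and 28.6% of all places of that length, and with library size alone 639 rose and 52 fell of 745, beside 91.5% and 4.25%. Without WT library 1, 2 or 3, 151, 165 or 131 rose and 245, 264 or 175 fell of 798, 835 or 554. Over all places of that length, 35.9%, 36.7% or 44.5% rose and 21.6%, 22.5% or 21.1% fell. With the highest entry of each place 84 rose and 161 fell of 419, beside 39.5% and 28.2%, and with single entries as rows 61 rose and 181 fell of 417, beside 30.5% and 32.8%. Among 29-32 nt places, 14 rose and 1783 fell of 1832, beside 2.37% and 94.1%. With factors of the miRNAs 208 places of the cluster rose and 2135 fell of 2592, beside 16.1% and 73.3% of all places. With library size alone 781 rose and 1239 fell of 2155, beside 49.2% and 45.1%. With DESeq2's size factors 89 rose and 2340 fell of 2704, beside 10.1% and 78.7%. Leaving out WT library 1 or 3 left 163 of 3550 or 138 of 2586 places that rose. Beside these, 11418 of 95726 or 9978 of 69553 places rose over the whole table.

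The places with the highest WT level were RNAs of 30 to 32 nt that shared 3 starts. The 31-nt RNA at chr5:149808194-149808224 had 3, 1 and 1 counts in KO libraries against 1586, 1646 and 2248 in WT. At the same 5′ end the 30-nt RNA had 3, 3 and 4 counts against 1221, 1134 and 1606. The 31-nt RNA at chr5:149825244-149825274 had 0, 0 and 2 counts against 1298, 1172 and 2339, and the 32-nt RNA of that end 0, 0 and 1 against 836, 789 and 1652. At chr5:149818036-149818066 a 31-nt RNA had 4, 3 and 3 counts in KO against 941, 1089 and 1553 in WT. These places were chosen for their WT level and passed the filter through WT, so their counts are given with no test.

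The places with the highest KO level were shorter and lay in part at those same ends. The 26-nt RNA at chr5:149825249-149825274 had 550, 334 and 479 counts in KO against 80, 103 and 120 in WT, which is 328 ± 31.9 CPM against 58.9 ± 5.25. Its log2 change was 2.48 (SE 0.21), and that of its 27-nt form at chr5:149825248-149825274 was 2.46 (SE 0.21). The 27-nt RNA at chr5:149825155-149825181 had 329, 196 and 327 counts in KO against 113, 132 and 146 in WT. The fitted log2 change was 1.41 (SE 0.21). The 27-nt RNA at chr5:149818347-149818373 had 431, 272 and 542 counts in KO against 224, 219 and 284 in WT. The fitted log2 change was 1.05 (SE 0.20). With the highest entry of each place in place of the sum, that value was 0.40. These places were chosen for their KO level, so their changes are given with no test.

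A 22-nt RNA at chr5:149809190-149809211, in an intron of Gm21221, was the only length with counts at its 5′ end. It had 447, 307 and 521 counts in KO against 355, 434 and 735 in WT, the second highest place in KO. Its level was 306 ± 25.3 CPM in KO and 289 ± 56.3 CPM in WT, with overlapping groups (edgeR log2 change 0.08, SE 0.20). That change was −0.50 with DESeq2's size factors in edgeR and 1.63 with library size alone. No annotated miRNA of GENCODE or RefSeq lies in the cluster.

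The largest rises were 25- and 26-nt RNAs, which were chosen for their change and are given with no test. The 25-nt RNA at chr5:149808200-149808224 had 125, 82 and 104 counts in KO against 16, 6 and 16 in WT (log2 change 3.33, SE 0.28). It shares its 5′ end with the 31-nt RNA that was highest in WT. A 25-nt RNA at chr5:149823808-149823832 had 69, 34 and 71 counts against 6, 8 and 17 (log2 change 2.77, SE 0.32). The largest falls were long RNAs with no KO count in any library. The 30-nt RNA at chr5:149818469-149818498 had 531, 411 and 599 counts in WT and KO fell short of it at least 516-fold per miRNA count, taking a floor of 3 counts over the KO group. For the 31-nt RNA of that end and the 32-nt RNA at chr5:149804288-149804319 the bounds were 441-fold and 443-fold.

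Pooling all lengths at a 5′ end gave the starts seen in each genotype. On the minus strand 13734 ends had counts, 8365 of them in KO and 12653 in WT, and 7284 in both. KO had fewer cluster counts, so these numbers depend on depth and do not show which starts KO lost. Ends seen in both genotypes held 98.7% of the KO counts and 94.0% of the WT counts. The order of the ends differed more. Of the 100 highest ends of KO and the 100 highest of WT, 37 were shared, which is 37% of each list. At 428 ends with at least 300 counts over the 6 libraries, the median end was 8.59-fold lower in KO per miRNA count, and 16 ends were higher in KO. That minimum applies to summed counts, most of which are WT counts, so the median and the number of higher ends are in part set by it and are given as a description. At 334 of them KO had at least 20 counts and so a most frequent length. This length was 28 nt or less in KO and 29 nt or more in WT at 242 ends. At 71 ends it was 29 nt or more in both, at 21 ends 28 nt or less in both, and at 0 ends long in KO and short in WT. The median difference was 3 nt.

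The 5 ends with the highest mean level, called A to E here, differed in kind. End A, at 149825274, had 1103, 649 and 1032 counts in KO against 4087, 3802 and 7213 in WT. In KO 97.9% of its counts were 25-28 nt and 0.647% were 29-32 nt, and in WT 8.17% and 90.9%. Per 100 miRNA counts its total was 0.445 ± 0.0233 in KO and 2.38 ± 0.505 in WT. End B, at 149808224, moved likewise, with 91.5% of the KO counts at 25-28 nt and 88.2% of the WT counts at 29-32 nt.

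End C, at 149818373, had the same most frequent length, 27 nt, in both genotypes. It held 1312, 789 and 1554 counts in KO against 828, 774 and 1086 in WT, 1.34-fold more in KO per miRNA count. RNAs of 25-28 nt made up 77.0% of its counts in KO and 64.9% in WT. Ends D and E, at 149805088 and 149808494, were far lower in KO in total, though not at each length, since the 24-nt RNA of end D had 27 counts over the KO libraries and 20 over the WT libraries. End D fell from 2160, 1764 and 3065 counts in WT to 67, 30 and 53 in KO, 47.3-fold lower per miRNA count, although 37.0% of its WT counts were 25-28 nt. End E fell 152-fold, from 1947, 2117 and 2774 counts to 17, 12 and 15. No test was made of these descriptions.

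**Figure D2:**
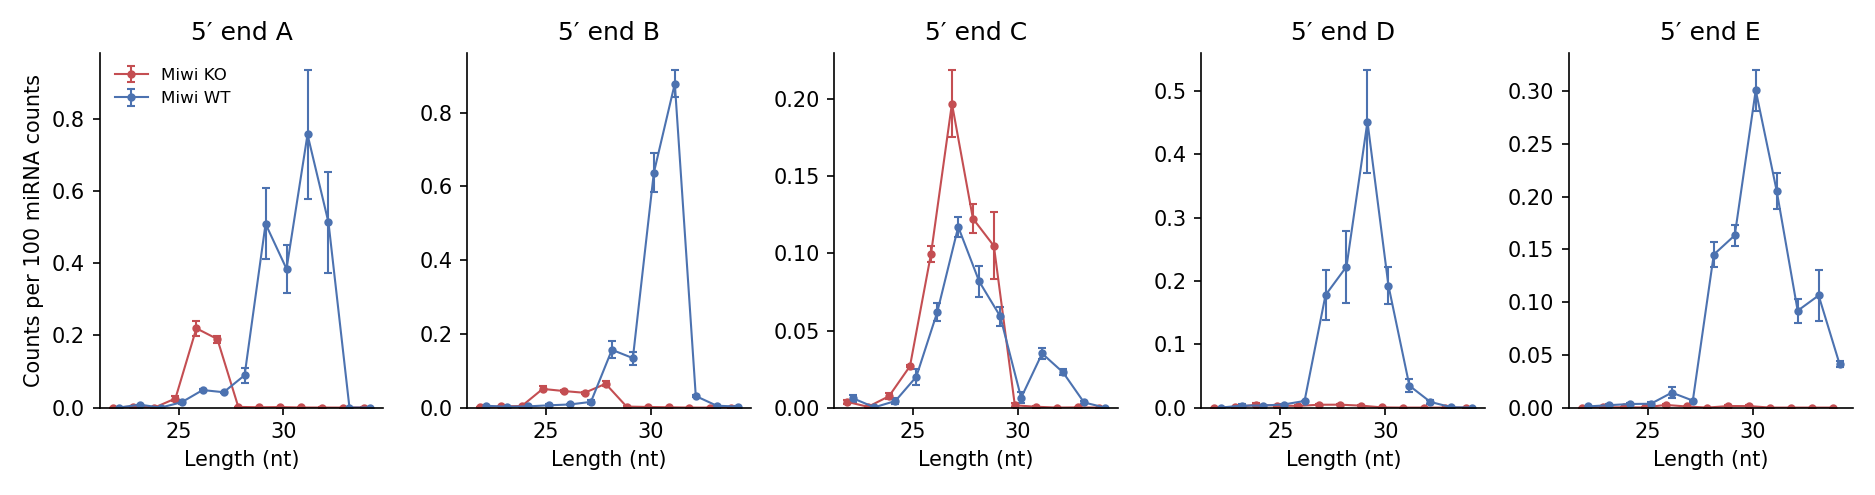
Counts per 100 miRNA counts (mean and SD, n = 3) against RNA length (nt) at the 5 highest 5′ ends of the cluster, for Miwi KO (red) and WT (blue), each panel with its own vertical scale. At ends A and B the KO RNAs are shorter, at end C both peak at 27 nt, and at ends D and E KO lies near 0.

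Beyond these 5, the extremes of the 428 ends, chosen after their values were seen, ran from ends without a KO count to ends higher in KO. Position 149794277 had 158, 101 and 176 WT counts and 149797512 had 139, 142 and 226, and KO had 0 at both, lower by at least 146-fold and 170-fold by the same floor of 3 counts. In all, 5 ends had 0 KO counts and 17 had 3 or fewer. At the other extreme, 149826910 had 86, 55 and 71 counts in KO against 23, 27 and 41 in WT, 2.39-fold higher in KO per miRNA count. At 149825182 the counts were 327, 161 and 294 against 113, 141 and 153, 1.88-fold higher. Both lie in the same segment of the cluster as end A.

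The spread of the counts along the cluster differed between the genotypes. For this the cluster was cut into 10 equal segments, numbered by coordinate, so that segment 10 is the upstream end of a minus-strand precursor. Segment 9 held 21.3%, 20.8% and 20.5% of the cluster counts in KO and 10.1%, 10.1% and 10.1% in WT. Segment 10 held 1.51% ± 0.0847 in KO and 0.401% ± 0.0361 in WT. Segments 2 and 7 also took a larger share in KO, 3.56% ± 0.0455 against 3.23% ± 0.111 and 24.2% ± 0.446 against 18.7% ± 0.149. The other 6 took less, and segment 3 the least of its WT share, 1.13% ± 0.0537 against 3.70% ± 0.145. Groups did not overlap in any segment (exact permutation p = 0.1 each, 0.1 when adjusted over 10 segments). The 10 shares of a library add up to the whole, so they are not separate results. No count over the segments of other clusters is given beside this, so it is not read as a trait of this cluster. In WT the segments with most counts were 8, 7 and 4, with 21.1% ± 0.332, 18.7% ± 0.149 and 18.2% ± 0.586.

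**Figure D3:**
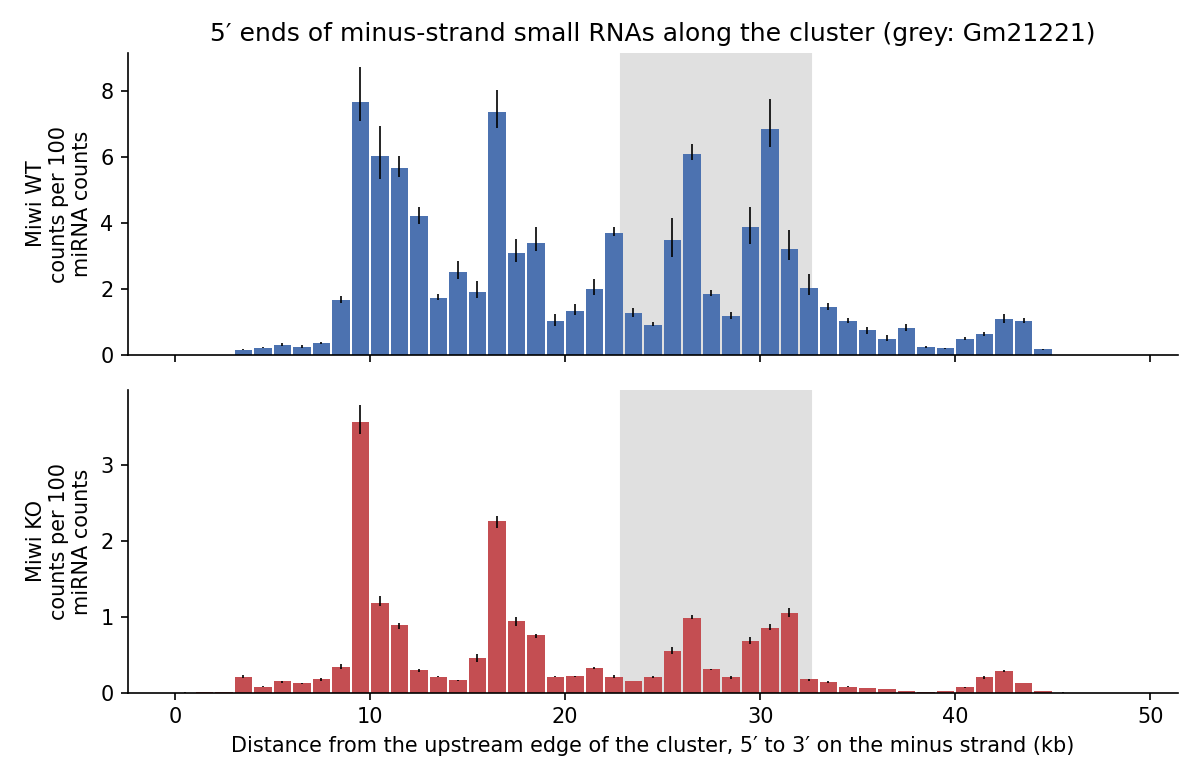
Counts per 100 miRNA counts in bins of 1000 bases (bars, mean of 3 libraries; lines, lowest to highest library) by distance in kb from the upstream edge of the cluster, for WT (top) and Miwi KO (bottom), with separate vertical scales. The highest bin starts at 9 kb in both, at 7.69 in WT and 3.57 in KO, and the grey band marks Gm21221.

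By length, the upstream segments differed in both classes. The fits of segments by length were chosen after the data had been seen. Their p-values are therefore a description and support nothing further. RNAs of 25-28 nt rose in segment 9 by 1.01 on the log2 scale (SE 0.08, edgeR adjusted p = 1.44e-13) and in segment 10 by 1.26 (SE 0.13, edgeR adjusted p = 5.09e-11). Per 100 miRNA counts they stood at 2.72 ± 0.165 against 1.66 ± 0.0900 in segment 9 and at 0.192 ± 0.0216 against 0.0988 ± 0.00948 in segment 10. In segment 3 they fell by 1.47 (SE 0.11, edgeR adjusted p = 8.44e-15), though with library size alone that value was 0.07 (adjusted p = 0.470). Over all 10 segments the 25-28 nt RNAs rose in 3 and fell in 4, and of the segments of all clusters 25.7% rose and 22.2% fell in this class. With library size alone 9 rose and 0 fell, where 89.2% of all such segments rose. With DESeq2's size factors 8 fell, where 48.4% of all fell. The number that fell also grew when WT library 1, 2 or 3 was left out. No share over all clusters is given for those fits, so that growth is not read as a trait of this cluster. Segments 9 and 10 rose under each scale and with each library left out.

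RNAs of 29-32 nt fell in all 10 segments, where 88.2% of the segments of all clusters fell in this class. The fall was smallest in segment 10, by 1.56 (SE 0.13, edgeR adjusted p = 2.08e-13), and in segment 9, by 2.56 (SE 0.09, edgeR adjusted p = 9.67e-25). It was largest in segment 3, by 5.97 (SE 0.12, edgeR adjusted p = 1.28e-31). With library size alone the value in segment 10 was −0.02 (adjusted p = 0.905). The share of 29-32 nt among 25-32 nt RNAs of KO was 27.3% ± 1.88 in segment 9 and 27.1% ± 2.37 in segment 10, and 16.9% ± 0.571 to 22.3% ± 0.928 in the other segments.

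**Figure D4:**
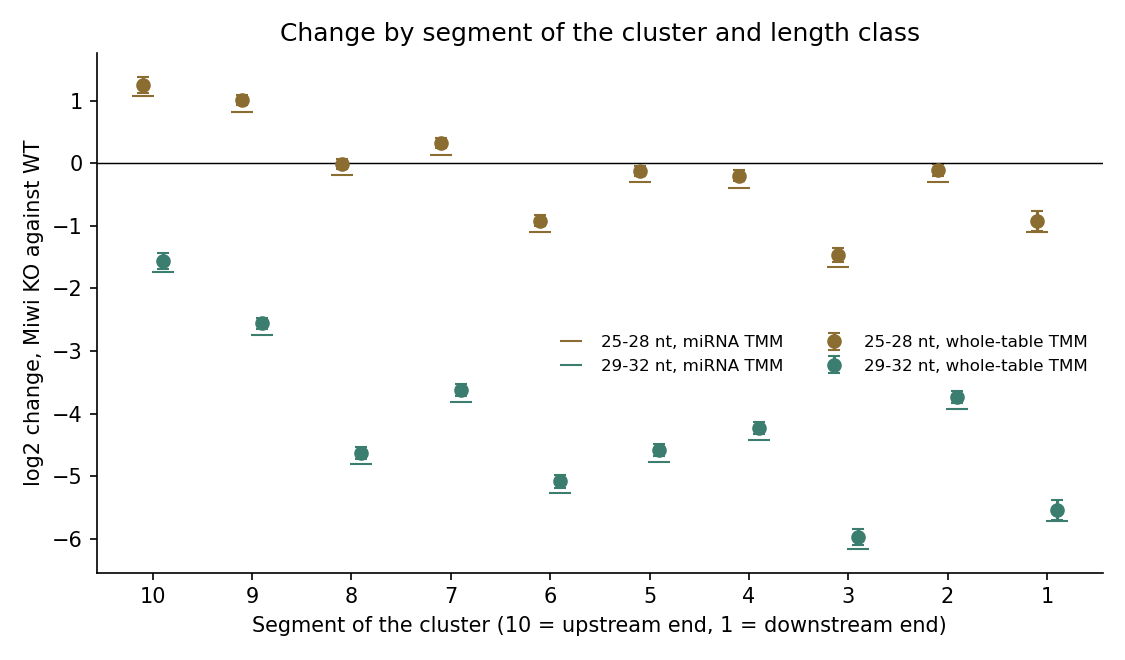
log2 change of Miwi KO against WT in each segment of the cluster, from upstream (10) to downstream (1), for 25-28 nt (brown) and 29-32 nt RNAs (green). Points with bars are edgeR estimates with SE under whole-table TMM factors, dashes those under miRNA factors. Both classes sit highest in segments 10 and 9.

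Segments 9 and 10 together held 22.9%, 22.28% and 21.99% of the KO counts and 10.4%, 10.5% and 10.5% of the WT counts, a ratio of 2.14. The same measure was taken in 90 clusters with at least 95% of their counts on 1 strand and at least 1000 counts in each genotype. It was higher in KO in 57 of them, with a median ratio of 1.51, and the cluster ranked 29 from the highest. This pair was chosen after the segments had been seen, and the ranks are a description. Per 100 miRNA counts of KO, the bin of 1000 bases from 9 kb held 3.57 and all of segment 9 held 3.98. Most of that bin lies in segment 9. The bin from 3 kb held 0.206 in KO and all of segment 10 held 0.287. In WT these were 7.69 against 9.49 and 0.168 against 0.377. The KO counts of both segments thus lay largely in a short stretch each.

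The few bases with known sequence allowed a look at base use. Exons of Gm21221 (GENCODE) and the stretch just before its start (RefSeq, GRCm38.p6) gave 1323 bases, and 2.71% of the cluster counts started there. The first base was U in 82.6% ± 1.12 of these counts in KO and 85.1% ± 1.53 in WT, with overlapping groups (exact permutation p = 0.2), where T made up 21.1% of the strand read. Other clusters had 82.7% ± 0.609 and 84.1% ± 0.627. Base 10, which is often A in piRNAs made by the ping-pong cycle of reciprocal cutting, was A in 26.5% ± 0.522 of the counts in KO and 35.6% ± 1.53 in WT (exact permutation p = 0.1). In other clusters it was A in 30.1% ± 0.202 and 32.6% ± 0.304.

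The ping-pong cycle also leaves partners on opposite strands whose 5′ parts overlap by 10 nt. Of the 773 plus-strand counts, 476 (61.6%) had a minus-strand 5′ end with counts at that overlap, the highest of 25 overlaps tried. The other overlaps had 215 to 336 counts with a median of 292.5. The share at 10 nt was 66.5% of the plus-strand counts in KO and 59.8% in WT, from 139 of 209 and 337 of 564 counts. Of the plus-strand counts, 338 (43.7%) were 18-19 nt, the shortest lengths of the table. Of these 338 counts, 140 had the 10-nt overlap, so most of the 476 were longer RNAs. The counts are few and no test was made.

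**Figure D5:**
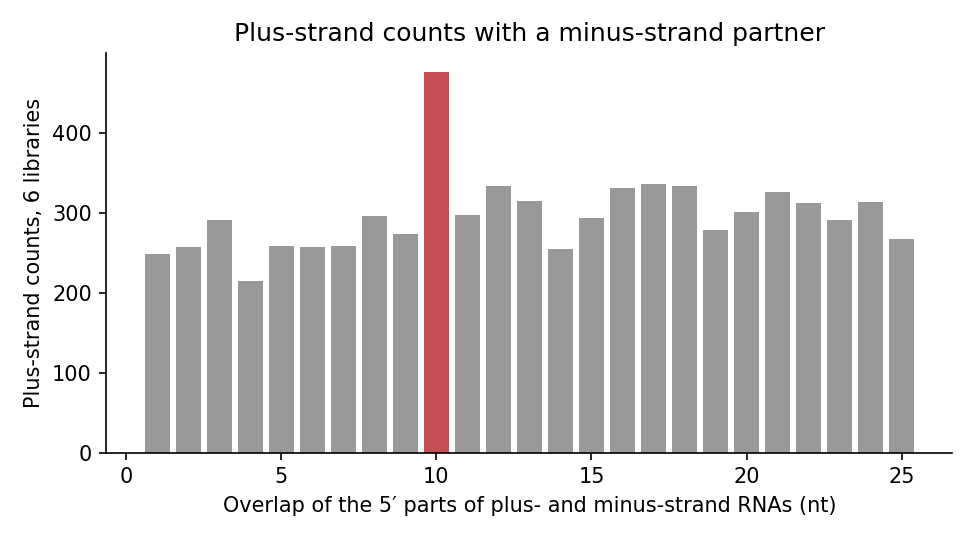
Plus-strand counts of the cluster, summed over 6 libraries, that have a minus-strand RNA whose 5′ part overlaps by 1 to 25 nt. The bar at 10 nt (red) stands at 476 and the others between 215 and 336.

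The 3 clusters nearest in mean CPM served as a comparison. They lie at chr7:69879006-69940023 (Gm44690), chr15:59245061-59304022 (Gm36617) and chr14:24078000-24124942 (Mir7210). They differ in strand use, with 36.6%, 79.9% and 0.531% of their counts on the minus strand against 99.9% here. Per 100 miRNA counts the cluster was 4.95-fold lower in KO and they were 5.63-fold, 4.24-fold and 3.08-fold lower. In WT its share of 29-32 nt lay 2.85 ± 0.0544 points below that of the first, −0.0810 ± 0.144 points from the second and 3.49 ± 0.140 points above the third. In KO the differences were −0.364 ± 0.330, −0.797 ± 0.332 and 0.649 ± 0.180 points. The genotypes did not overlap in any of the 3 differences (exact permutation p = 0.1 each, also when adjusted over 3).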

How the data were processed

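The authors deposited raw read counts for 6 libraries. Per the file headers, reads were counted with featureCounts v1.5.0-p2. Cutadapt, DESeq2 and build mm9 appear in the submitters' processing notes. How reads were aligned, and what was done with multiply matching reads, is not given in the sources used here. Names in the piRNA table give position, strand and cluster. Read on GENCODE M21 transcripts (GRCm38), T was frequent at the 5′ end itself (82.6% in KO, 85.1% in WT) and at 8.73% to 32.7% at the 3 bases on either side, so positions were taken as GRCm38, 1-based. The deposited lengths hold 20 nt more than the RNA, and these were subtracted. On the minus strand the 5′ end is the highest coordinate. Entries of a place were summed. At 42 places of the cluster with at least 2 entries of 200 counts or more, the highest count was 2.18 times the lowest in the median, so a read may have been counted under several names.

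Places and clusters by length class (18-24, 25-28, 29-32, 33-34 nt) were fitted over the whole table with edgeR 4.0.16 (R 4.3.3). TMM factors, the quasi-likelihood test and Benjamini-Hochberg adjustment at a threshold of 0.05 were used without a block, on rows kept by filterByExpr (count 10, total 15), after a test on simulated data. Segments (10 per cluster) were fitted the same way, a choice made after seeing the data. Against the factors of the whole table, log2 changes shift by −0.19 with miRNA factors, −0.59 with DESeq2's size factors and 1.54 with library size alone. DESeq2 1.42.0 was an alternative. Single values used exact permutation tests over libraries in scipy 1.17.1. Counts of replicate pairs of a genotype differed by more than the sampling noise of independent reads. Reads counted under several names would also raise this measure, so by itself it does not show a spread among replicates.

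Places were named by rule: the 5 highest in WT, the 5 highest in KO, and the 3 largest rises and 3 largest falls among places past the threshold with a mean of at least 20 CPM and no overlap. The cluster and the lists were chosen with earlier results of these data known.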

Additional observations from a re-analysis of the deposited data

How the results depend on the processing

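For the cluster, 262 places rose and 1983 fell of 2459 tested. The count that rose was 89 of 2704 tested with DESeq2's size factors in edgeR and 781 of 2155 with library size alone. It was 80 of 851 with a minimum count of 30 and 595 of 7521 without filterByExpr. It was 92 of 2189 with the highest entry of each place and 64 of 2618 with single entries. Without 1 library in turn it ran from 138 to 265, and the count that fell from 2146 to 2974, with 2586 to 3657 places tested. The count that fell was 1239 of 2155 with library size alone, 753 of 851 with a minimum count of 30 and 4981 of 7521 without filterByExpr. Among all places of the table, 13401 rose and 46948 fell of 66569 tested. There 7139 of 70934 rose with DESeq2's size factors, 30663 of 62329 with library size and 4035 of 21643 with a minimum count of 30. Without filterByExpr 30344 of 204851 rose, with the highest entry 6600 of 57232 and with single entries 5182 of 67535. The count that fell was 28083 of 62329 with library size, 16662 of 21643 with a minimum count of 30 and 121834 of 204851 without filterByExpr. Without 1 library, 9978 to 13809 rose and 50649 to 71273 fell, with 69553 to 97800 places tested. Causes were not tested, except that stricter filters leave fewer places to test.

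The 29-32 and 33-34 nt classes fell under each of 12 alternatives. The 18-24 nt class stood at −0.72 with DESeq2's size factors, −0.32 with miRNA factors, 1.41 with library size, 0.29 in DESeq2's Wald test and from −0.55 to −0.15 without 1 library. The 25-28 nt class stood at −0.51, −0.11, 1.62 and 0.50 under the same 4, at 0.47 as 24-27 nt, and at from −0.35 to 0.064 without 1 library. The Wald test of the classes drew its size factors from the class sums and not from the places. Its values therefore differ in scale as well as in test. The 22-nt place stood at −0.50 with DESeq2's size factors, −0.10 with miRNA factors, −0.50 with the highest entry, and from −0.43 to 0.15 without 1 library. In segment 3, 25-28 nt RNAs stood at 0.070 with library size alone. Of the other named places under all alternatives, 1 call was lost. The 185 alternative values of the shares, lengths and levels per miRNA kept their direction; each has an exact p that cannot pass 0.05.

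Deviations from the genotype mean had correlations of 0.0053, 0.0466 and 0.0723 between same-numbered KO and WT libraries. Between differently numbered libraries they ran from −0.0683 to 0.0199. With 3 libraries per genotype these values cannot settle whether the numbers pair the samples. With the replicate block 254 places rose and 1979 fell of 2459, beside 13193 and 46877 of 66569 over the whole table. The block changed no call of the length classes or named places. In KO 47.5% of the cluster counts lay in places that could be tested, against 65.9% in WT. The part of depth, and of places that passed the filter through WT, was not tested.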
